A study of Mus with 8 samples.

Results

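The genes described are 10 genes that mark T cells: the CD3 genes Cd3e, Cd3d and Cd3g, the coreceptor genes Cd4, Cd8a and Cd8b1, the kinase gene Lck, the surface receptor genes Cd2 and Cd5, and Foxp3. They were taken by symbol from a table of 31269 gene symbols, and all 10 were present and passed the filter on low counts, as did 17629 symbols in all. The samples were 8 RNA sequencing libraries of mouse uterus at pseudopregnancy day 6, when progesterone dominates after mating with a sterile male. By their labels, 4 libraries had a deficiency of PGR, the progesterone receptor, in the muscle wall (myometrium), and 4 were controls. No treatment, strain, age or allele is named in the labels, nor the promoter that would restrict the deficiency to muscle. The labels speak of implantation sites, which a pseudopregnant uterus does not have.

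T cells recognise antigen through a receptor whose chains cannot signal alone. The CD3 chains carry the signal into the cell, CD4 or CD8 binds the MHC molecule that presents the antigen, and the kinase LCK, held by the coreceptor, starts the signal. T cells are a small part of the leukocytes of the rodent uterus in early pregnancy, where uterine natural killer cells and macrophages are abundant, and regulatory T cells, which depend on FOXP3, are known for restraining responses to the fetus. Values below are in CPM (counts relative to library size after TMM scaling). They were measured over whole tissue, so fewer cells of a type and less RNA per cell cannot be told apart.

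Total counts per library ran from 70296369 to 72364750. Pgr itself averaged 177 ± 12.1 CPM in the libraries labelled deficient and 156 ± 22.8 CPM in the controls (SD, n = 4 each), a log2 difference of 0.18 ± 0.11 (SE; edgeR adjusted p = 0.338). Counts cover the whole gene in all cell types and did not mark the deficiency, so each direction below rests on the label alone. Markers of the labelled tissue were present: all 6 smooth muscle, all 6 epithelial and all 6 stromal markers passed the filter. Libraries 2 and 3 labelled deficient stood apart in the sum of epithelial markers, at 2261 and 1617 CPM, against 908 to 1076 CPM in the controls. Not every marker did so. In these libraries Krt18 was at 271 and 300 CPM, against 268 to 310 CPM in the controls. Foxa2 was at 14.7 and 7.99 CPM, against 10.2 to 18.2 CPM in the controls. Whether the libraries are from different animals is not stated, so the p-values reflect only the spread among these libraries, which may be technical.

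All 10 T cell genes had a higher mean in the libraries labelled deficient, where 52.0% of all tested genes had a positive difference, but none passed the test. The log2 differences of deficient over control ran from 0.21 for Cd2 to 1.32 for Cd3g, with a median of 0.59, and the median over all tested genes was 0.01. With edgeR's quasi-likelihood test and adjustment over all genes, 0 of the 10 passed the threshold of 0.05, as 0% of all genes did. At an unadjusted p under 0.05 there were 2 of the 10, both higher (Cd3g and Cd3d), where 13.0% of all genes were higher and 24.8% passed in either direction. DESeq2 called 1, Cd3g, where it called 14.1% of all genes. In limma-voom 0 of the 10 passed, where 0.0113% of all genes did. In 1 gene, Cd3g, the groups did not overlap, against 16.3% of all genes in either direction and 7.61% with the libraries labelled deficient on top. These counts of passes are near the shares over all genes. The members share cells, so 10 positive differences are not 10 independent observations. On leaving out single libraries the edgeR count at an unadjusted p under 0.05 was 1 without library 1, 2 or 4 labelled deficient or control library 2 or 4, and 3 without library 3 labelled deficient or control library 3.

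**Figure D1:**
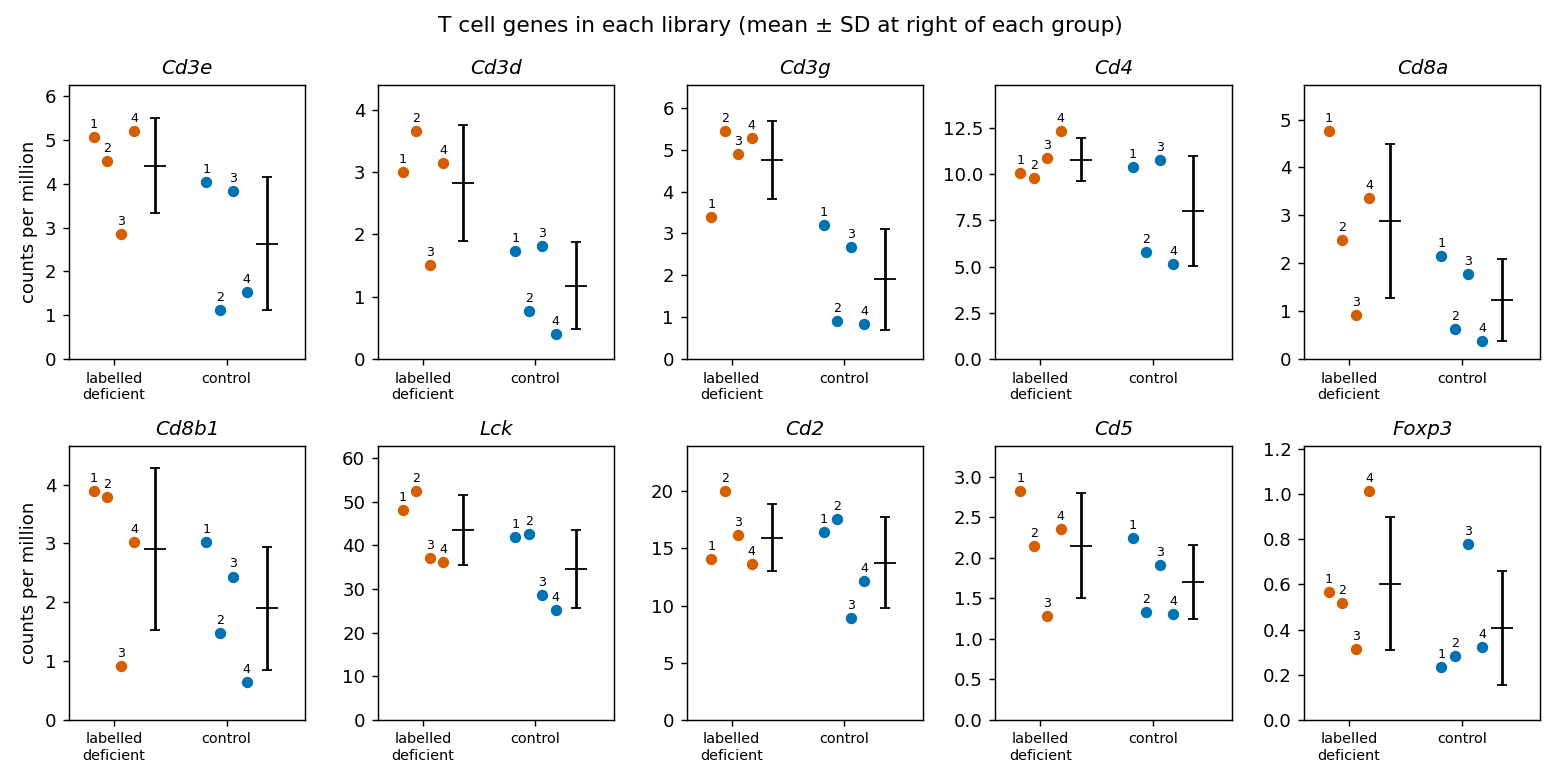
CPM of the 10 T cell genes (vertical axis, from 0) in each library, with library numbers beside the points and the mean and SD at the right of each group. Control libraries 2 and 4 lie low for the CD3 genes, Cd4 and Cd8a, control libraries 1 and 3 lie higher, and library 3 labelled deficient is low for Cd8a, Cd8b1 and Cd5.

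The CD3 genes encode the epsilon, delta and gamma chains of the signalling module and lie side by side on chromosome 9 (GRCm38.p6): Cd3g at chr9:44969572-44980431, Cd3d at chr9:44981769-44987052 and Cd3e at chr9:44998735-45009663. Cd3g was at 3.39, 5.46, 4.89 and 5.28 CPM in the labelled-deficient libraries 1 to 4, against 3.20, 0.903, 2.68 and 0.846 CPM in controls 1 to 4. Every library labelled deficient lay above every control, although library 1 labelled deficient and control library 1 were close. The log2 difference was 1.32 ± 0.46 (SE; 2.49-fold, 95% interval 1.20 to 5.17). The adjusted p was 0.142 in edgeR and 0.0368 in DESeq2, and over all alternatives it ran from 0.0090 to 0.324. The DESeq2 call was lost without library 2 (adjusted p = 0.111), 3 (0.0963) or 4 (0.0691) labelled deficient or control library 2 (0.0925) or 4 (0.118). By exact permutation, two-sided, p was 0.0286, the smallest that 4 against 4 allows. Any gene without overlap between the groups gets this value, as 16.3% of all tested genes do, so it restates the lack of overlap. For the other members the permutation p ran from 0.0857 (Cd3d) to 0.429 (Cd8b1 and Cd2).

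Cd3d was at 3.00, 3.66, 1.504 and 3.15 CPM in the labelled-deficient libraries 1 to 4, against 1.74, 0.776, 1.81 and 0.395 CPM in controls 1 to 4. Library 3 labelled deficient lay below control libraries 1 and 3, so the groups overlapped. The log2 difference was 1.26 ± 0.50 (SE; 2.40-fold, 95% interval 1.09 to 5.27; edgeR adjusted p = 0.170, DESeq2 adjusted p = 0.0744).

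Cd3e was at 5.07, 4.52, 2.85 and 5.21 CPM in the labelled-deficient libraries 1 to 4, against 4.05, 1.11, 3.83 and 1.54 CPM in controls 1 to 4. The groups overlapped in the same way as for Cd3d. On the log2 scale the difference was 0.74 ± 0.44 (SE; 1.68-fold, 95% interval 0.838 to 3.35; edgeR adjusted p = 0.315). Summed over the CD3 genes, the level was 9.25 to 13.6 CPM in the libraries labelled deficient and 2.78 to 8.98 CPM in the controls, without overlap. This sum is a description, as its genes were chosen with earlier results known. The controls were uneven, with 8.98 and 8.32 CPM in libraries 1 and 3 and 2.79 and 2.78 CPM in libraries 2 and 4.

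Cd4, the coreceptor gene of helper and regulatory T cells, is also read in some dendritic and innate lymphoid cells of the mouse and lies at chr6:124864693-124888247. It was at 10.05, 9.77, 10.9 and 12.4 CPM in the labelled-deficient libraries 1 to 4, against 10.4, 5.80, 10.8 and 5.13 CPM in controls 1 to 4. The libraries labelled deficient were close together and level with control libraries 1 and 3. The log2 difference was 0.43 ± 0.26 (SE; 1.34-fold, 95% interval 0.890 to 2.02; edgeR adjusted p = 0.331).

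Cd8a and Cd8b1 encode the alpha and beta chains of the coreceptor of cytotoxic T cells and lie near each other at chr6:71373427-71379171 and chr6:71322788-71337492. The alpha chain is also made by some dendritic and other lymphoid cells. Cd8a was at 4.77, 2.48, 0.922 and 3.37 CPM in the labelled-deficient libraries 1 to 4, against 2.15, 0.635, 1.78 and 0.381 CPM in controls 1 to 4. It varied most among the 10 genes, 12.5-fold between the highest and the lowest library, and 5.17-fold within the libraries labelled deficient. Its log2 difference of 1.22 ± 0.64 (SE; 2.33-fold, 95% interval 0.840 to 6.47) was of the size of that of Cd3d with a wider error (edgeR adjusted p = 0.270).

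Cd8b1 was at 3.88, 3.78, 0.922 and 3.02 CPM in the labelled-deficient libraries 1 to 4, against 3.02, 1.48, 2.44 and 0.649 CPM in controls 1 to 4. Library 3 labelled deficient again lay low, above control library 4 alone. Cd8b1 differed on the log2 scale by 0.61 ± 0.55 (SE; 1.53-fold, 95% interval 0.637 to 3.68; edgeR adjusted p = 0.507).

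The coreceptors did not keep a fixed proportion to each other. The log2 ratio of Cd4 over Cd8a was 1.07, 1.98, 3.55 and 1.87 in the labelled-deficient libraries 1 to 4, against 2.27, 3.18, 2.59 and 3.73 in controls 1 to 4. The groups overlapped, and library 3 labelled deficient stood with the controls of the highest ratio. The log2 ratio of Cd8b1 over Cd8a was -0.30, 0.61, 0.00 and -0.15 in the labelled-deficient libraries 1 to 4, against 0.49, 1.21, 0.45 and 0.76 in controls 1 to 4. Only library 2 labelled deficient reached the range of the controls. These ratios set different genes against each other and are read only between libraries, with no test.

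Lck, the kinase that phosphorylates the CD3 chains and is also used by natural killer cells, lies at chr4:129548344-129573641, and the microRNA gene Mir8119 lies within it. It was at 48.2, 52.4, 37.2 and 36.2 CPM in the labelled-deficient libraries 1 to 4, against 41.9, 42.6, 28.7 and 25.2 CPM in controls 1 to 4. Control libraries 1 and 2 lay above libraries 3 and 4 labelled deficient, an order unlike that of the CD3 genes. On the log2 scale the difference was 0.33 ± 0.20 (SE; 1.26-fold, 95% interval 0.910 to 1.74; edgeR adjusted p = 0.337).

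Cd2, an adhesion receptor of T and natural killer cells that in the mouse is also found on B cells, lies at chr3:101275908-101287939. It was at 14.0, 20.0, 16.1 and 13.6 CPM in the labelled-deficient libraries 1 to 4, against 16.4, 17.6, 8.92 and 12.2 CPM in controls 1 to 4. Control libraries 1 and 2 again lay high. Its log2 difference was the smallest of the 10 at 0.21 ± 0.23 (SE; 1.16-fold, 95% interval 0.807 to 1.66; edgeR adjusted p = 0.578).

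Cd5, a receptor that dampens T cell receptor signalling and also marks B-1 cells, lies at chr19:10718107-10739026. It was at 2.82, 2.15, 1.28 and 2.35 CPM in the labelled-deficient libraries 1 to 4, against 2.25, 1.33, 1.92 and 1.31 CPM in controls 1 to 4. Library 3 labelled deficient was the lowest of all 8. Cd5 differed on the log2 scale by 0.34 ± 0.29 (SE; 1.26-fold, 95% interval 0.793 to 2.02; edgeR adjusted p = 0.490).

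Foxp3, the transcription factor that defines regulatory T cells, lies at chrX:7579676-7595243 and overlaps the annotated genes Flicr and Ccdc22, so reads there may be shared or dropped. It was the most thinly counted member, with 41, 35, 22 and 74 reads in the labelled-deficient libraries 1 to 4, against 17, 20, 57 and 23 reads in controls 1 to 4. In CPM these were 0.567, 0.519, 0.312 and 1.01 in the libraries labelled deficient, against 0.234, 0.282, 0.780 and 0.324 in the controls. Library 4 labelled deficient and control library 3 were high, and the other 6 libraries lay between 0.234 and 0.567 CPM. The log2 difference was 0.57 ± 0.49 (SE; 1.49-fold, 95% interval 0.684 to 3.22; edgeR adjusted p = 0.483). The log2 ratio of Foxp3 over Cd3e averaged -2.94 ± 0.39 in the libraries labelled deficient and -2.63 ± 0.97 in the controls (SD, n = 4 each), with overlap.

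**Figure D2:**
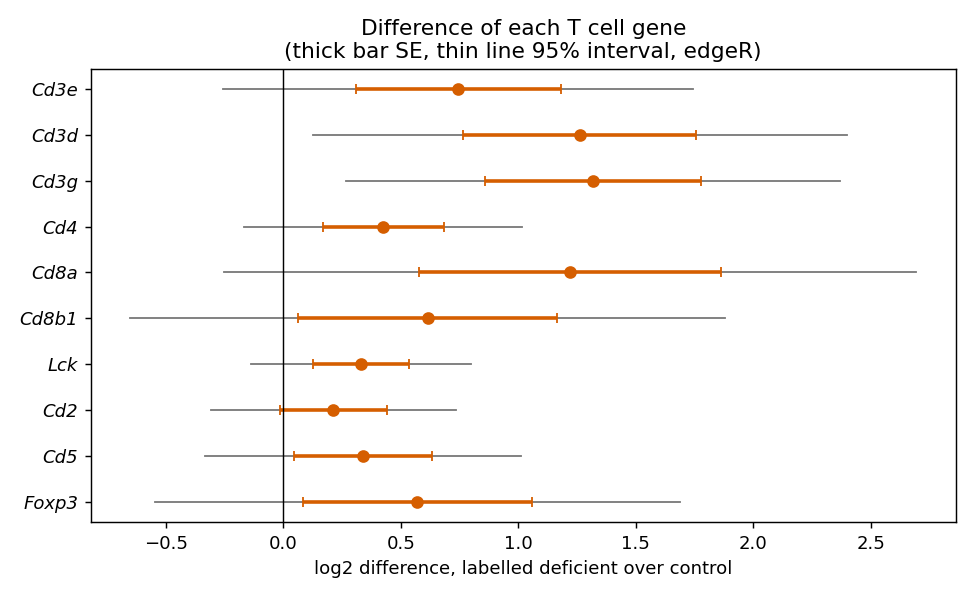
Log2 difference of deficient over control (horizontal axis) for each T cell gene from the edgeR fit, with the SE as a thick bar and the 95% interval as a thin line. The intervals of Cd3d and Cd3g lie above 0 before adjustment over all genes, and those of the other 8 genes cross 0.

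The 10 genes followed more than 1 pattern across the libraries. Pearson correlations of log2 CPM over the 8 libraries, which share normalization and group and are given as a description, were 0.90 for Cd3e with Cd3d, 0.88 for Cd3e with Cd3g and 0.90 for Cd3d with Cd3g. Cd8a correlated at 0.92 with Cd3e, 0.92 with Cd8b1 and 0.95 with Cd5. With the group means removed these stayed between 0.78 and 0.96. Cd4 correlated at 0.93 with Cd3g by Pearson's r and at 0.55 by Spearman's rho, with control libraries 2 and 4 far below the other libraries. Cd3g was at 0.60 with Cd8b1 and 0.58 with Cd5.

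Lck and Cd2 correlated with each other at 0.78, and at 0.74 with the group means removed. Lck was at 0.35 with Cd3e, 0.46 with Cd3g, 0.64 with Cd3d, 0.57 with Cd8a and 0.66 with Cd8b1. With the group means removed these were 0.06, 0.12, 0.45, 0.39 and 0.59. Cd2 was between -0.08 and 0.20 with the CD3 genes, and between -0.39 and -0.10 with the group means removed. Foxp3 reached 0.60 with Cd3e and -0.47 with Cd2.

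**Figure D3:**
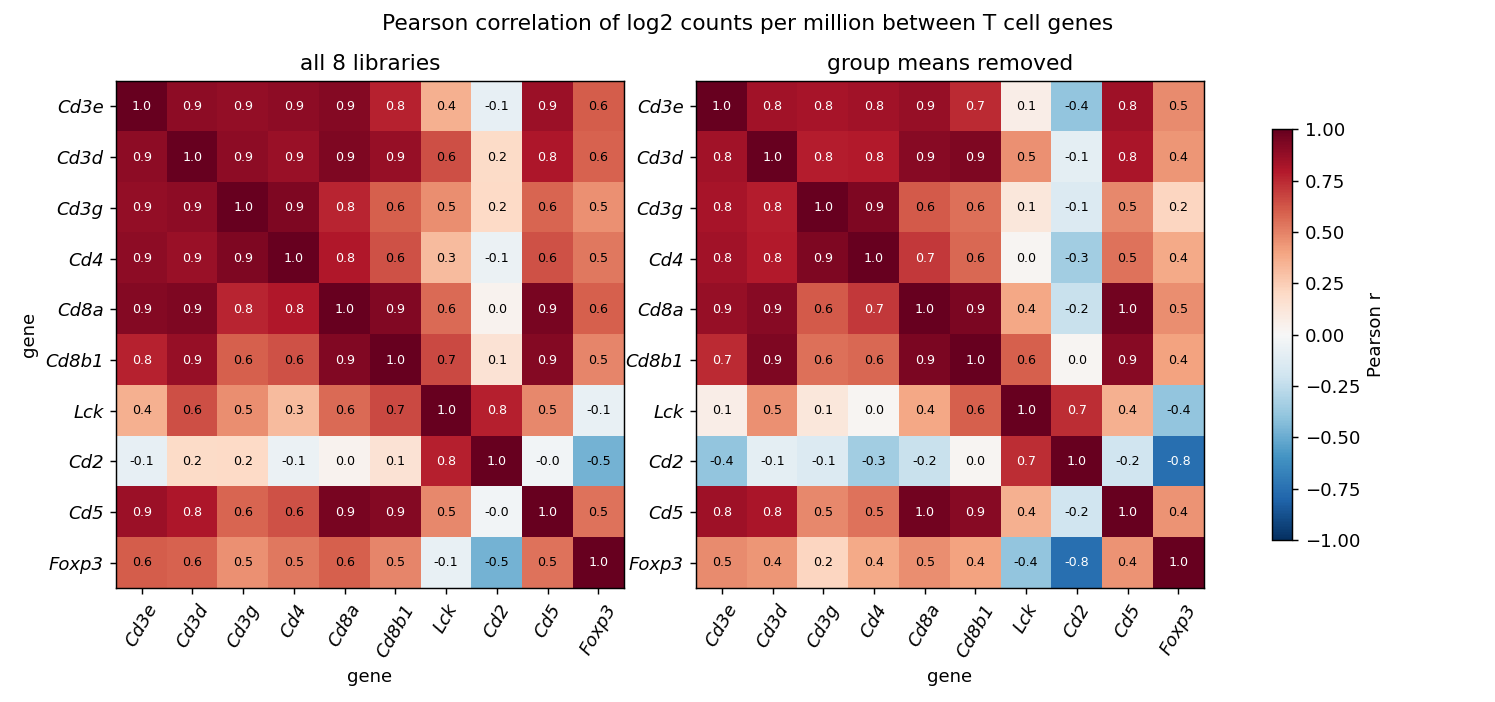
Pearson correlation of log2 CPM between each pair of T cell genes over all 8 libraries (left) and with each group's mean removed (right), from blue at -1 to red at 1. Over all libraries Cd3e, Cd3d, Cd8a, Cd8b1 and Cd5 are at 0.77 or above with each other, Cd4 is at 0.87 to 0.93 with the CD3 genes, and Lck is at 0.78 with Cd2 and at 0.35 to 0.64 with the CD3 genes.

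Summed levels of other cell types' markers moved with these patterns. Lck followed the natural killer cell markers, of which 11 of 12 were tested: the correlation with their summed CPM was 0.96 over 8 libraries, 0.95 with the group means removed and 0.92 over the 6 libraries left without the 2 farthest from the median sum (library 2 labelled deficient and control library 4). That sum was 456, 601, 384 and 346 CPM in the labelled-deficient libraries 1 to 4, against 345, 396, 248 and 233 CPM in controls 1 to 4. Lck came to 8.72% to 10.6% of the sum in the libraries labelled deficient and to 10.7% to 12.1% in the controls. Cd2 correlated with the same sum at 0.81, the CD3 genes at 0.32 (Cd3e), 0.51 (Cd3g) and 0.63 (Cd3d), Cd8a at 0.48 and Cd8b1 at 0.54. Lck also correlated at 0.87 with the summed pan-leukocyte genes (0.88 with the group means removed) and at 0.81 with the summed genes of receptor signalling. Without library 2 labelled deficient and control library 4 these fell to 0.62 and 0.36. The CD3 genes were at 0.52 (Cd3e), 0.73 (Cd3g) and 0.78 (Cd3d) with the pan-leukocyte sum over 8 libraries. With the sum of receptor signalling genes they were at 0.58 (Cd3e), 0.82 (Cd3g) and 0.83 (Cd3d), so that sum did not set Lck apart. Which cells the Lck and Cd2 reads came from was not tested.

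The CD3, CD8 and Cd5 levels were low where smooth muscle markers were high, a relation that for some of the genes rests on control libraries 2 and 4. All 6 of those markers passed the filter, and their summed CPM was 3570, 3995, 4163 and 3797 in the labelled-deficient libraries 1 to 4, against 3564, 5107, 4359 and 5359 in controls 1 to 4. Correlations with that sum were -0.90 for Cd3e, -0.86 for Cd3d, -0.83 for Cd3g and -0.86 for Cd4. Cd8a was at -0.91, Cd8b1 at -0.78 and Cd5 at -0.84, while Lck was at -0.58, Foxp3 at -0.30 and Cd2 at -0.18. Control libraries 2 and 4, which held the most smooth muscle signal, were those with the lowest CD3 levels. Over the other 6 libraries the correlation was -0.58 for Cd3e, -0.32 for Cd3d, 0.03 for Cd3g and 0.12 for Cd4. There Cd8a was at -0.67, Cd8b1 at -0.54, Cd5 at -0.70, Lck at -0.60, Cd2 at -0.41 and Foxp3 at 0.26. The part of tissue makeup in the group difference was not tested.

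**Figure D4:**
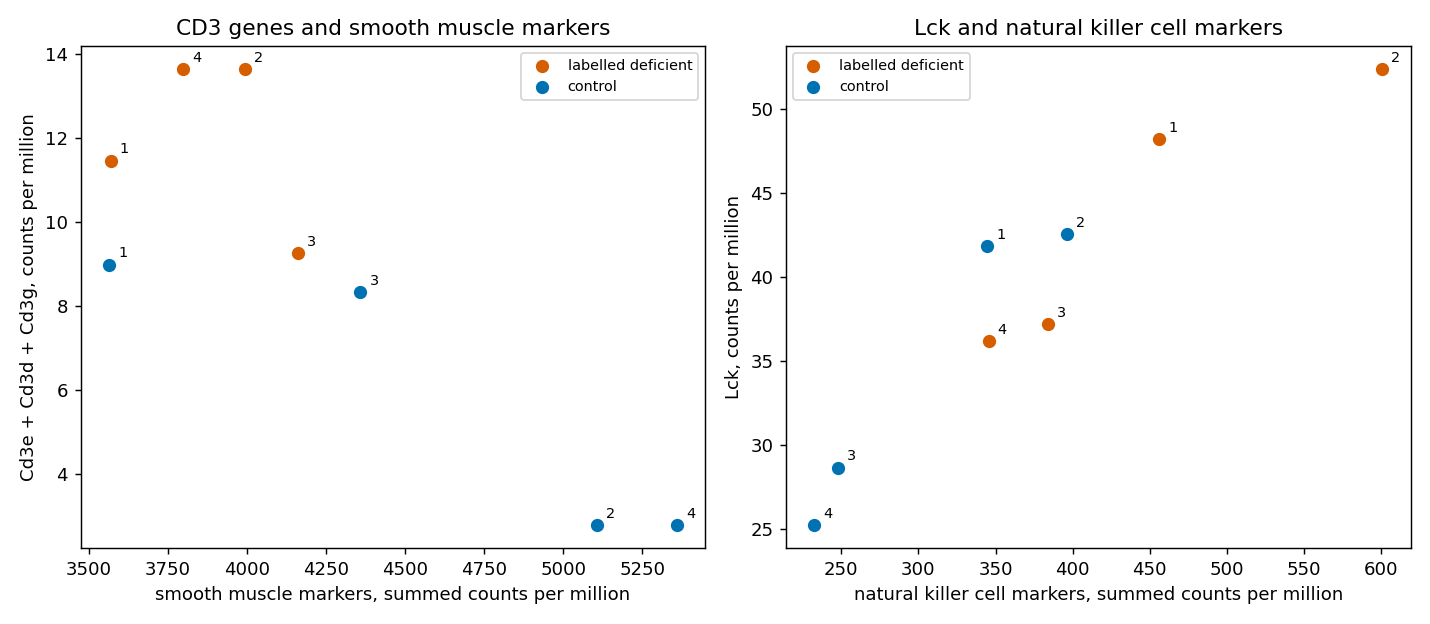
Left, summed CPM of Cd3e, Cd3d and Cd3g against those of 6 smooth muscle markers; right, Lck against the summed CPM of 11 natural killer cell markers, 1 point per library with its number. Control libraries 2 and 4 lie at the lower right on the left, and the Lck points climb with the natural killer sum in both groups.

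Leukocyte genes in general were also higher in the libraries labelled deficient. All 9 pan-leukocyte genes had positive differences, with a median log2 difference of 0.53. Of the 9, 7 lay wholly above the controls, where 7.61% of all genes did. At an unadjusted p under 0.05 all 9 were higher, where 13.0% of all genes were. In edgeR 0 passed and in DESeq2 7 did, where it called 14.1% of all genes. The summed CPM of the 9 ran from 847 to 1192 in the libraries labelled deficient and from 547 to 756 in the controls. Set against that sum, the CD3 genes came to 1.26%, 1.15%, 1.03% and 1.61% in the labelled-deficient libraries 1 to 4, against 1.21%, 0.369%, 1.30% and 0.508% in controls 1 to 4. Relative to other leukocyte genes the groups thus overlapped, with control libraries 1 and 3 inside the range of the libraries labelled deficient.

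Other lists of immune markers gave the following. Macrophage markers had 11 of 12 positive differences (median 0.53), with 1195 to 1826 summed CPM in the libraries labelled deficient and 976 to 1247 CPM in the controls. B cell markers had 6 of 8 positive (median 0.88), with 20.2 to 33.6 summed CPM in the libraries labelled deficient and 16.04 to 19.98 CPM in the controls. Dendritic cell markers had 3 of 10 positive (median -0.13), with 143 to 189 summed CPM in the libraries labelled deficient and 148 to 210 CPM in the controls. Natural killer markers had 10 of 11 positive (median 0.45). In each of these 4 lists 0 genes passed in edgeR. At an unadjusted p under 0.05 there were 8 macrophage, 4 B cell, 0 dendritic cell and 5 natural killer markers. All of them were higher, as were 13.0% of all genes. DESeq2 called 7 macrophage, 2 B cell, 0 dendritic cell and 2 natural killer markers, where it called 14.1% of all genes. On leaving out single libraries the macrophage count ran from 7 to 10. The natural killer count was 2 without library 1 or 2 labelled deficient or control library 3 or 4, and 8 without control library 2. The B cell count was 2 without library 4 labelled deficient or without any 1 of the controls, and the dendritic cell count was 1 without library 1 labelled deficient or control library 1 or 3.

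The symbols listed for the constant segments of the T cell receptor chains had no match. The table held 22 rows whose symbols begin with TCR, of which 7 passed the filter, and these were chosen after their values were seen. What each row covers is not stated in the sources used here, and RefSeq places Tcrd (chr14:53946073-54159198) inside Tcra (chr14:52427967-54224198), so reads may be shared or dropped. All 7 had positive differences, while 0 passed in edgeR and 1 in DESeq2, and 1 was at an unadjusted p under 0.05 in edgeR. Over all genes DESeq2 called 14.1%, and 24.8% were at an unadjusted p under 0.05 in edgeR. The row Tcra was at 2.39, 1.44, 0.865 and 1.98 CPM in the labelled-deficient libraries 1 to 4, against 1.72, 0.423, 1.18 and 0.494 CPM in controls 1 to 4, with control libraries 2 and 4 low, as for the CD3 genes. Its log2 difference was 0.81 ± 0.51 (SE; edgeR adjusted p = 0.346), and its correlation with the mean log2 CPM of the CD3 genes was 0.91 over 8 libraries. The row Tcrg was at 0.912, 3.35, 2.21 and 1.68 CPM in the labelled-deficient libraries 1 to 4, against 1.72, 0.621, 1.44 and 0.776 CPM in controls 1 to 4 (log2 difference 0.84 ± 0.46 SE, edgeR adjusted p = 0.287), and its correlation with the CD3 mean was 0.75. The row TCR-beta chain had a log2 difference of 0.66 ± 0.21 (SE; edgeR adjusted p = 0.125) and a correlation of 0.82 with the CD3 mean. It also correlated at 0.90 with the summed natural killer markers and at 0.94 with the summed pan-leukocyte genes. With the group means removed these were 0.82 and 0.85. Which cells its reads came from was not tested. Not all rows followed the CD3 genes. Tcrd, at 13.3 to 25.6 CPM in the libraries labelled deficient and 12.4 to 17.6 CPM in the controls, had a log2 difference of 0.33 ± 0.25 (SE) and a correlation of 0.26 with the CD3 mean. With the summed epithelial markers Tcrd was at 0.89 and Tcrg at 0.83 (0.88 and 0.77 with the group means removed). Without libraries 2 and 3 labelled deficient, Tcrd was at 0.48 and Tcrg at 0.67 with that sum. Which cells the Tcrd and Tcrg reads came from was not tested. For TCRB the difference was 0.55 ± 0.29 and the correlation 0.29, while TCRB was at 0.88 with the summed natural killer markers. The row Tcrg-C, with a difference of 0.31 ± 0.31, was at 0.70 with the CD3 mean, near the value of Tcrg. Cd247, which encodes the zeta chain shared with natural killer cells, was at 8.31 ± 2.30 CPM in the libraries labelled deficient and 5.57 ± 1.43 CPM in the controls (SD, n = 4 each; log2 difference 0.58 ± 0.25 SE, edgeR adjusted p = 0.202).

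Of 20 genes of T cell receptor signalling, 19 had positive differences (median 0.53), 8 were higher at an unadjusted p under 0.05 and 0 passed in edgeR. DESeq2 called 4 of them. Over all genes 13.0% were higher at that unadjusted p and DESeq2 called 14.1%. The 8 became 5 without library 1 or 2 labelled deficient and 4 without control library 3 or 4. Among those with the smallest p were Fyb, an adaptor of the integrin pathway (log2 difference 0.84 ± 0.11 SE, edgeR adjusted p = 0.0755), Lcp2, the adaptor SLP-76 (0.62 ± 0.13), and Rasgrp1, which activates Ras (0.97 ± 0.33). Fyb was at 87.0 to 100.1 CPM in the libraries labelled deficient and 42.5 to 59.7 CPM in the controls, without overlap. Fyb and Lcp2 are also made by other leukocytes. Zap70, the kinase that binds phosphorylated CD3 chains, had a difference of 0.41 ± 0.20 and was picked with its value known.

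Of 15 costimulation and checkpoint receptors, 11 had positive differences (median 0.37). At an unadjusted p under 0.05, 3 were higher, where 13.0% of all genes were. In edgeR 0 passed, and DESeq2 called 1, where it called 14.1% of all genes. The count at an unadjusted p under 0.05 was 1 without library 2 labelled deficient or control library 3 or 4, and 5 without control library 1. With all libraries the 3 were Tnfrsf9, the activation receptor 4-1BB (1.54 ± 0.40 SE, edgeR adjusted p = 0.101), Cd28, the main costimulatory receptor (0.37 ± 0.14), and Tigit, an inhibitory receptor (0.46 ± 0.20). Ctla4, which regulatory T cells use to restrain costimulation, was at 0.548 CPM in the libraries labelled deficient and 0.203 CPM in the controls on average (1.42 ± 0.73, edgeR adjusted p = 0.262). The groups overlapped, at 0.194, 0.578, 0.284 and 1.14 CPM in the labelled-deficient libraries 1 to 4, against 0.372, 0.0847, 0.301 and 0.0564 CPM in controls 1 to 4. The lower receptors were Lag3 (-0.56 ± 0.36), Havcr2 (-0.39 ± 0.25), Tnfrsf4 (-0.10 ± 0.16) and Tnfrsf18 (-0.03 ± 0.14), named with their values known. Tnfrsf9 was at 2.21 to 4.84 CPM in the libraries labelled deficient and 0.649 to 2.11 CPM in the controls.

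The 15 transcription factors went both ways, with 11 positive (median 0.22). At an unadjusted p under 0.05, 5 were higher and 3 lower, where 13.0% of all genes were higher and 11.8% lower. None passed in edgeR, and DESeq2 called 4, where it called 14.1% of all genes. The 8 became 4 without library 2 labelled deficient or control library 4, and 5 without control library 2 or 3. Ikzf1, the lymphoid factor Ikaros, was at 0.74 ± 0.14 (SE) and Zbtb7b, the factor that sets the CD4 lineage, at 0.29 ± 0.08. Satb1, a chromatin organiser of developing T cells that other tissues make as well, was at -0.54 ± 0.14, and Bach2, which restrains effector programmes, at -0.76 ± 0.22. Satb1 was at 39.2 to 56.5 CPM in the libraries labelled deficient and 57.8 to 81.1 CPM in the controls, without overlap. The edgeR adjusted p of these 4 ran from 0.0906 to 0.111.

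Of 11 cytokines and cytokine receptors, 7 were tested, as Il2, Il17a, Il21 and Il22 did not pass the filter. Of the 7, 6 had positive differences (median 0.35), 3 were higher at an unadjusted p under 0.05, 0 passed in edgeR and DESeq2 called 1. Over all genes 13.0% were higher at that unadjusted p and DESeq2 called 14.1%. The 3 became 1 without library 2 labelled deficient or control library 3 or 4. Ifng, the cytokine of cytotoxic and helper T cells and natural killer cells, was at 0.954, 1.14, 0.596 and 0.561 CPM in the labelled-deficient libraries 1 to 4, against 0.289, 0.254, 0.424 and 0.0987 CPM in controls 1 to 4. The groups did not overlap, on 7 to 77 reads per library, and the log2 difference was 1.60 ± 0.44 (SE; edgeR adjusted p = 0.104). On the log2 scale the difference was 1.99 ± 0.77 for Il10, an inhibitory cytokine with 5 to 86 reads per library, and 0.30 without libraries 2 and 3 labelled deficient. It was 0.35 ± 0.14 for Il2rg and, for Il2rb, which is also a natural killer marker and stands in both lists, 0.45 ± 0.20.

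Of 9 trafficking receptors tested out of 10, 7 had positive differences (median 0.45). At an unadjusted p under 0.05, 3 were higher and 1 lower, where 24.8% of all genes passed in either direction. In edgeR 0 passed, and DESeq2 called 1, where it called 14.1% of all genes. The count of 4 became 2 without library 2 labelled deficient and 1 without control library 4. Among these, the chemokine receptor genes Cxcr6 and Cxcr3 were at 0.68 ± 0.26 (SE) and 0.45 ± 0.18, while Klf2, a factor of resting T cells and of endothelium, was at -0.53 ± 0.19. The edgeR adjusted p of these 3 ran from 0.147 to 0.174. Chemokines that attract T cells had 5 of 7 positive differences (median 0.17). None was called by DESeq2 (14.1% of all genes were), and 0 had an unadjusted p under 0.05 in edgeR (24.8% of all genes had). In edgeR 2 did without library 1 labelled deficient and 3 without control library 3. Ccl5 was at 0.45 ± 0.25 and Ccl17 at -1.86 ± 0.89. Ccl17 was at 1.36 CPM in control library 1 and at 0.137 to 0.353 CPM in the other controls. In the libraries labelled deficient it was at 0.0137 to 0.213 CPM, so the groups overlapped. Summed, they came to 68.6 to 106 CPM in the libraries labelled deficient and 60.4 to 89.6 CPM in the controls.

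**Figure D5:**
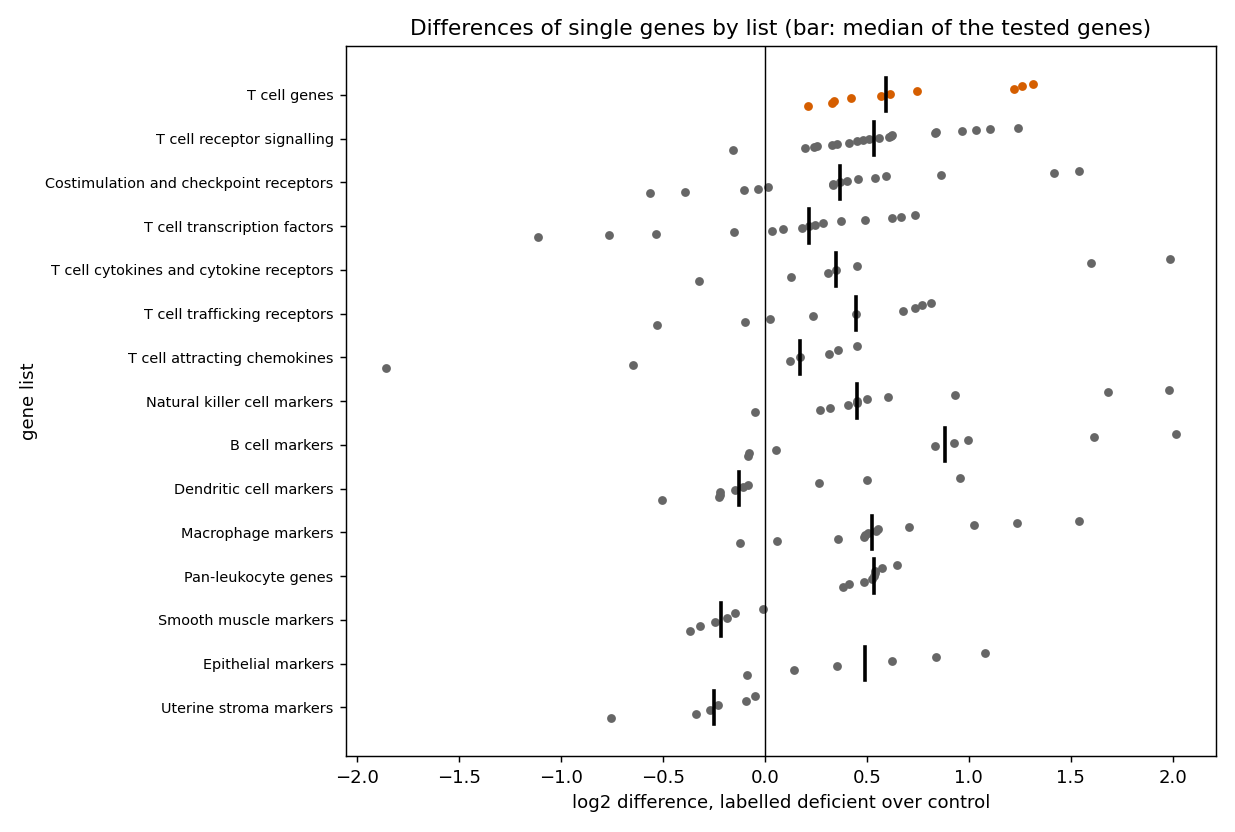
Log2 difference of deficient over control (horizontal axis) of each tested gene of the T cell genes (orange) and of the lists of 2 or more tested genes (grey), with the median of each list as a bar. The T cell genes (median 0.59), T cell receptor signalling (0.53), macrophage (0.53) and pan-leukocyte genes (0.53) lie mostly above 0, and dendritic cell markers (-0.13) and smooth muscle markers (-0.22) have medians below 0.

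The tested genes whose levels were most like the mean log2 CPM of the CD3 genes over the 8 libraries, by Pearson's r and outside the 10 members, were Ube2ql1 (0.98), Tor3a (0.97), Gsg1 (0.96), 4930506M07Rik (0.96), Morf4l1 (0.96), Slamf1 (0.96), Mpv17l (0.95), Nt5dc1 (0.95), Scn4b (0.95) and Slc22a18 (0.95). The members Cd4, at rank 25 of 17629, and Cd8a, at rank 58, followed closely, and Cd5 was at rank 486, Lck at rank 2801 and Cd2 at rank 7380. Slamf1, a surface receptor of activated lymphocytes, was at 0.456 to 0.564 CPM in the libraries labelled deficient and 0.0705 to 0.356 CPM in the controls. Scn4b, a sodium channel subunit gene, lies on the chromosome of the CD3 genes, at chr9:45138624-45154155. It was at 5.46 to 13.7 CPM in the libraries labelled deficient and 1.72 to 6.64 CPM in the controls. With 8 points and 17629 genes, high values of r arise in many genes, and these are a description of the libraries.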

How the data were processed

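The authors deposited 1 table of whole-number read counts per gene symbol for 8 libraries, with no normalization. Per the submitters' processing notes, HISAT2 2.2.1, HTSeq 0.10.0 and the build mm10 were used; the sources used here give no strand or other setting. Columns were matched to samples by the codes in the titles. The authors' counts were filtered with filterByExpr, scaled with TMM and tested with edgeR 4.0.16 (glmQLFit, glmQLFTest, R 4.3.3) (a model with group alone; Benjamini-Hochberg adjustment over all genes at 0.05). The SE was derived from the difference and its F value. Log2 CPM for correlations and ratios used a prior count of 0.5. DESeq2 1.42.0, limma-voom (limma 3.58.1), other scalings and filters, a replicate block and leaving out libraries were alternatives. The fits were tested on simulated data. Coordinates come from a RefSeq table of GRCm38.p6. The genes, the 15 lists and the alternatives were chosen with earlier results of these data known. Named are all members, up to 4 genes per list with the smallest p and the 10 genes most like the CD3 mean; some of these are not reported here, and genes outside this rule are marked as such in the text. Adgre1 was matched by an older symbol. No 2 libraries agreed within sampling noise. No sequences of these genes were used here.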

Additional observations from a re-analysis of the deposited data

Results flagged for a closer look

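Foxp3 in control library 3 stood far from the other controls, at 0.780 CPM against 0.234 to 0.324 CPM. It was the 1 value flagged among 20 groups of 4 libraries (10 genes in each of the groups labelled deficient and control) by the gap to its nearest neighbour relative to the range, and chance flags about 1 in 20. The value rests on 57 reads. Without that library the log2 difference of Foxp3 was 1.10.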

How the results depend on the processing

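All 269 values of the 10 T cell genes under the alternatives stayed positive. No member passed in edgeR or limma-voom under any alternative, which covers scalings, filters, robust=TRUE, legacy=FALSE, the block and leaving out libraries. DESeq2 called 1 member (Cd3g). On leaving out single libraries in DESeq2, added after seeing the data, it called from 0 to 2 members (Cd3g, and Cd3d without control library 3 or library 3 labelled deficient) and from 927 to 3961 genes; without libraries 2 and 3 labelled deficient it called 0 members and 1461 genes. Over all genes DESeq2 called 2488, limma-voom 2 and legacy=FALSE 3, against 0 in edgeR, where 4372 had an unadjusted p under 0.05. On leaving out single libraries in edgeR, 0 to 2 genes were called. With the replicate number as a block edgeR called 23 genes and 0 members; same-numbered libraries did not deviate together in all pairs (correlations 0.20, 0.22, -0.01 and -0.07), so the numbers are not taken to pair libraries. Without single libraries the log2 difference ran from 0.49 to 1.02 for Cd3e, 0.96 to 1.54 for Cd3d, 1.06 to 1.67 for Cd3g, 0.87 to 1.62 for Cd8a, 0.20 to 1.10 for Foxp3 and 0.04 to 0.35 for Cd2. Without libraries 2 and 3 labelled deficient Cd2 was at 0.01 and Cd8a at 1.72. At an unadjusted p under 0.05 there were 5 of 20 receptor signalling genes without those libraries, against 8 with them, and 5 of 9 pan-leukocyte genes, against 9. Single libraries moved that count by over 1.5 times in 12 of the 15 lists. Of 57 other genes picked by the naming rule, 7 turned direction. Without libraries 2 and 3 labelled deficient, in edgeR and DESeq2, 6 of them were at these values, Cxcl16 (-0.091 and -0.092), Cdh1 (-0.10 and -0.11), Krt19 (-0.28 in both), Epcam (-0.10 and -0.11), Hoxa11 (0.0065 and 0.0043) and Vim (0.031 and 0.029). Clec9a, without single libraries, ran from -0.33 to 0.021, being above 0 only without control library 1 (0.010 in edgeR). The causes were not tested. Depth limits the thin genes, as Foxp3 had 17 to 74 reads per library, Ifng 7 to 77, Ctla4 4 to 83, Ccl17 1 to 99, Slamf1 5 to 38 and Gsg1 2 to 17.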
